A study of Mus musculus with 4 samples.

Results

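The Hox genes were followed across the cell classes found around the developing inner ear in E10.5 mouse embryos of 34 to 36 somites. Every gene whose symbol is Hox, a cluster letter from a to d and a number was taken, which gave 39 of the 32285 genes in the matrices, all of them present in each of the 4 single-cell libraries. Of these libraries, 2 came from control embryos (Pax2-Cre;Rosa26GFPf/+) and 2 from conditional knockout embryos, called cKO here (Pax2-Cre;Tbx2f/f;Tbx3f/f;Rosa26Gfpf/+), all on a Swiss-Webster background. Both groups therefore carry the Pax2-Cre transgene and the GFP reporter, and the 2 floxed genes are deleted only in cells in which the Pax2-Cre transgene was active. Otic vesicles with the cochleovestibular ganglion and some of the neighbouring neural tube and pharyngeal tissue were cut out and pooled from 3 control and 2 cKO embryos, and live GFP-positive cells were sorted before droplet capture. The labels do not say how embryos were divided among libraries, so each genotype p-value below measures only the spread between the 2 libraries of a group, which may be technical. P-values that compare cell classes were fitted with the library as a block. They measure how the class differences vary between libraries, which may be technical too.

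Hox genes encode homeodomain transcription factors that are arranged in clusters on 4 chromosomes. Genes at the 3′ end of a cluster carry low paralogue numbers and are switched on in anterior territories, and genes with higher numbers have anterior borders that lie farther back, so the set of Hox genes in a cell reads out its level along the body axis. In the hindbrain, group 1 and group 2 genes mark anterior rhombomeres, with Hoxb1 kept high in rhombomere 4, and the borders of group 3 and group 4 genes lie behind them. Neural crest cells carry Hox genes of the rhombomere they left into the pharyngeal arches, where Hoxa2 gives the second arch its identity. The otic placode and the sensory ganglia of the inner ear form beside the hindbrain, and the epibranchial placodes, which give rise to viscerosensory neurons, form above the pharyngeal clefts. HOX proteins bind DNA with cofactors of the PBX and MEIS families, and retinoic acid is a main inducer of Hox genes of the hindbrain.

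In mm10 with the GENCODE vM21 annotation, the 11 Hoxa genes lie on chromosome 6, the 10 Hoxb genes span chromosome 11 from 96194316 to 96368256, the 9 Hoxc genes chromosome 15 from 102921103 to 103036852, and the 9 Hoxd genes chromosome 2 from 74668310 to 74765142. The promoters of 4 genes that the results below turn on are shown, from RefSeq on build GRCm38.p6, each reaching from 250 bases before to 50 bases after a start site. They were chosen because Hoxb1, Hoxb4 and Hoxd4 differed between the genotypes in at least 1 class, and because Hoxa2 led in the mesenchyme. Hoxb1 lies at chr11:96365508-96365807 on the plus strand, Hoxa2 at chr6:52164782-52165081 on the minus strand, Hoxb4 at chr11:96318017-96318316 on the plus strand and Hoxd4 at chr2:74721728-74722027 on the plus strand. Capitals mark a PBX-HOX site (TGATNNAT, sought on both strands) in Hoxb1 and Hoxa2 and a nuclear receptor half-site (AGGTCA, sought on both strands) in Hoxb4 and Hoxd4.
Hoxb1: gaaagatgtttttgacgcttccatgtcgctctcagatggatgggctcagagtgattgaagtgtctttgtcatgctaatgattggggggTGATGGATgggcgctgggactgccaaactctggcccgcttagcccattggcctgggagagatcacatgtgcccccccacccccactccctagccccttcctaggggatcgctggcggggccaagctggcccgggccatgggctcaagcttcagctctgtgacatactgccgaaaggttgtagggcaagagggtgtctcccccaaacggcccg
Hoxa2: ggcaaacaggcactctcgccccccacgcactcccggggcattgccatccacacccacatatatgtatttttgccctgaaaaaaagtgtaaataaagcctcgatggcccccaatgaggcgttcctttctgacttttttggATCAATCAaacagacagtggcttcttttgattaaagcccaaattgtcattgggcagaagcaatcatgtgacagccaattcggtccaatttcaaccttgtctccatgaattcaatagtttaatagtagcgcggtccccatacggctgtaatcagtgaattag
Hoxb4: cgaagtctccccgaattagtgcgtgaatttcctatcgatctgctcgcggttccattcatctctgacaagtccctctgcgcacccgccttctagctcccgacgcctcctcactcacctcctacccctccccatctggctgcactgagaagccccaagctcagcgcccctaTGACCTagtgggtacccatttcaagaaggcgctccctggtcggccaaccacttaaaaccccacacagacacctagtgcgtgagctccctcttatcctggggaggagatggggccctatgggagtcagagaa
Hoxd4: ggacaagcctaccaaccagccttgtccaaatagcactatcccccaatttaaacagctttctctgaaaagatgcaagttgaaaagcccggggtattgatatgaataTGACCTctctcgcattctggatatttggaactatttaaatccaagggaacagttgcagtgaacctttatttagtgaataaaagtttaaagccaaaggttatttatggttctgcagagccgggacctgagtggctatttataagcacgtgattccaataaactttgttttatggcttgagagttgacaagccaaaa
The PBX-HOX letters occurred in 8.846% of 32851 promoters of the same length and in 4 of the 24 Hox promoters matched (Hoxd11, Hoxa2, Hoxb8 and Hoxb1). The half-site occurred in 16.255% of all promoters and in 7 of the 24 (Hoxd10, Hoxd8, Hoxd3, Hoxd4, Hoxa5, Hoxb4 and Hoxc4). The T-box half-site AGGTGTGA, also sought on both strands, occurred in 1.275% of all promoters and in 1 of the 24, that of Hoxd9. A match of these letters is a description of the sequence and shows no binding. Promoters of Hoxb2, Hoxb3 and Hoxb5 were not in the set and so were not searched for these letters.

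The libraries held 4622 to 5340 barcodes and 106769747 to 128205192 unique molecular identifiers (UMIs, each a counted transcript molecule), and 3220 to 3869 cells per library were kept, 14399 in all, with median UMIs per cell of 26970 to 30081. Any pair of libraries shared 2 to 8 barcodes, at most 0.167% of a library. The median mitochondrial share of a cell was higher in control (2.41% and 2.96%) than in cKO libraries (1.31% and 1.38%), and its part in the genotype differences below was not tested. Hox genes and the noncoding genes of their clusters were kept out of the clustering, so that no class was formed from the genes described. Each class was named from marker lists and is called by the list it matched, for example otic epithelium-like. The markers held in every cluster used here, with 7 to 9 of 12 otic markers in the otic epithelium-like clusters, 10 to 12 of 12 in the placodal sensory neuron-like ones, 5 to 7 of 7 in the epibranchial neuron-like ones, 11 of 11 in the neural tube progenitor-like cluster, 5 to 8 of 10 in the neural tube neuron-like ones and 11 of 12 in the mesenchyme-like cluster. Of the targeted genes, Tbx3 in otic epithelium-like cells reached 63.3 and 60.9 CPM (the UMIs of a gene scaled to the same total UMIs in every class and library) for control against 22.6 and 17.6 CPM for cKO, and Tbx2 reached 92.9 and 102 against 69.2 and 67.6 CPM. In neural tube progenitor-like cells Tbx2 was at 0.835 and 1.33 CPM in control and 0.197 and 0 CPM in cKO, from 1, 2, 1 and 0 UMIs. Tbx3 had 3, 1, 0 and 1 UMIs there, and such counts are too few to show whether either gene was lost. The targets were not lower in every class. Tbx3 in epibranchial neuron-like cells was at 24.6 and 13 against 18.7 and 21.1 CPM, and Tbx2 at 8.66 and 7.86 against 2.43 and 4.33 CPM. Tbx2 in placodal sensory neuron-like cells was at 18.6 and 19.9 against 18.8 and 21.3 CPM, and Tbx3 at 101 and 99.1 against 33.3 and 27.6 CPM. The exons removed are not given in the sources used here, and a 3′ count outside them would not show the deletion.

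Over all kept cells the 39 Hox genes gave 38198 UMIs, and these fell almost entirely on paralogue groups 1 to 5. The 14 genes with at least 100 UMIs belonged to groups 1 to 6. Hoxb2 alone had 17274 UMIs, followed by Hoxb3 with 4854, Hoxa2 with 4752, Hoxb4 with 3413, Hoxa3 with 2473 and Hoxb1 with 2113. The 21 genes of groups 7 to 13 had 72 UMIs together. No UMI was found for 14 genes (Hoxa6, Hoxc6, Hoxc8, Hoxd8, Hoxb9, Hoxc9, Hoxc10, Hoxd10, Hoxa11, Hoxc11, Hoxd11, Hoxc12, Hoxd12 and Hoxb13), 6 had 1 to 10 UMIs (Hoxa7, Hoxa9, Hoxd9, Hoxa10, Hoxa13 and Hoxd13), and 5 had 13 to 30 (Hoxd1, Hoxc5, Hoxb7, Hoxb8 and Hoxc13). Of the 17 Hoxc13 UMIs, 8 came from 2 ectoderm-like cells of control 1, 7 of them from one cell. Counts are 3′ tags that are not divided by gene length, so an order between genes is an order of counted molecules. On the same strand, Hoxa4, Hoxa5 and Hoxa6 lie inside the annotated span of Hoxa3, and Hoxc6, Hoxc8, Hoxc9 and Hoxc10 overlap Hoxc5. Reads shared by such genes may be uncounted or split between them. Low or absent counts of these genes therefore do not show that they were silent.

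A gene was called detected in a class when it reached 2 CPM in every library with at least 20 cells of the class, and high when it reached 20 CPM. By this rule neural tube neuron-like cells held the widest code, with 9 genes of groups 1 to 4 detected and 7 of them high. Neural tube progenitor-like cells held 6 genes of groups 1 to 3, epibranchial neuron-like cells 6 genes of groups 2 to 5, and pharyngeal endoderm-like cells 7 genes of groups 1 to 5. Endothelium-like cells held 6 genes, ectoderm-like cells 3, and mesenchyme-like and neural crest or glia-like cells 2 each, Hoxa2 and Hoxb2. In otic epithelium-like and placodal sensory neuron-like cells the rule left Hoxb2 as the one gene detected, and in leukocyte-like cells it left none. Leukocyte-like cells, a class in which most of these genes should be silent, gave 30 Hox UMIs in 197 cells, with Hoxb4 at 1.87 to 4.51 CPM and Hoxb2 at 0 to 0.748 CPM, the latter taken as the level that free RNA leaves in a droplet. Hoxb4 was lower in otic epithelium-like cells (0.028 to 0.115 CPM) than in leukocyte-like cells, so its leukocyte-like level was not taken as background.

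**Figure D1:**
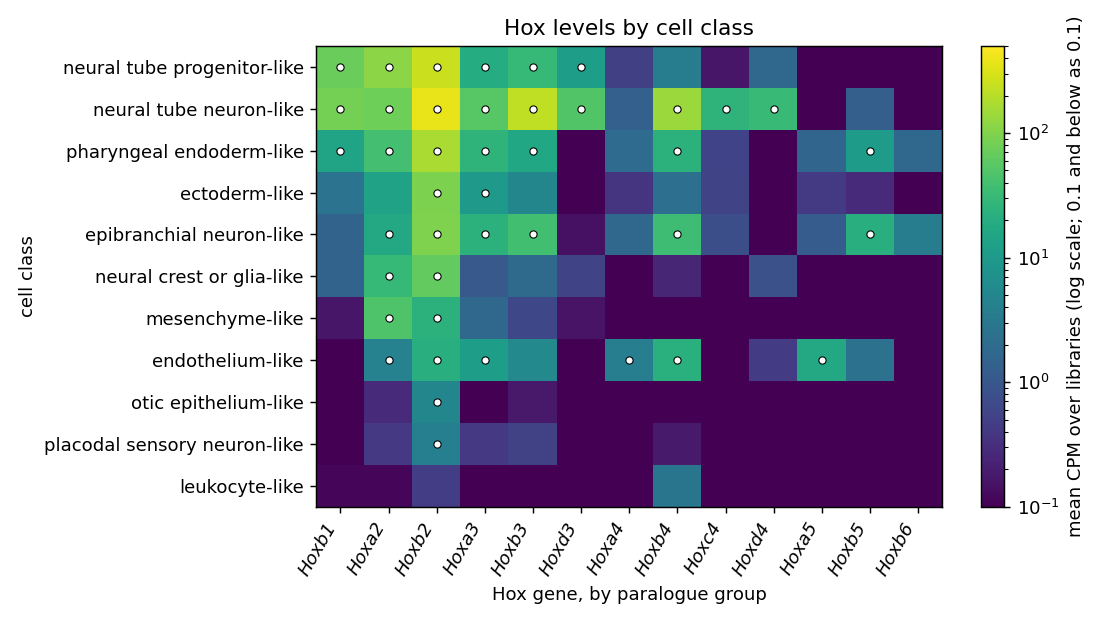
Mean CPM over libraries with at least 20 cells (colour, log scale) for 13 of the 14 Hox genes with at least 100 UMIs (columns, by paralogue group) in 11 cell classes (rows), with white dots where the gene was detected in every such library. The neural tube rows are bright for groups 1 to 3, neural tube neuron-like cells also for group 4, and the otic, placodal and leukocyte rows are dark except for a faint Hoxb2 or Hoxb4.

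The inner ear epithelium and its neurons were almost free of Hox transcripts. Hoxb2, whose product patterns the anterior hindbrain, stood at 4.56 and 4.16 CPM in control against 6.41 and 4.63 CPM in cKO otic epithelium-like cells, and at 4.22, 3.01, 5.86 and 2.63 CPM (control 1, control 2, cKO 1, cKO 2) in placodal sensory neuron-like cells. All 8 values lay above the leukocyte-like range, and they came from 237 to 333 UMIs per library in the otic class. All Hox genes together summed to 5.14 to 7.36 CPM in otic epithelium-like cells, against 428 to 565 CPM in neural tube progenitor-like cells of the same libraries. With every cell thinned to 8000 UMIs, 3.40%, 4.42%, 5.45% and 3.47% of otic epithelium-like cells held any Hox UMI (10.4% to 16.1% without thinning), against 0 to 2.50% of leukocyte-like cells (7.50% to 14.8% without thinning). Within the otic class the pooled Hoxb2 level was 13.3 CPM in cluster 10, led by Aldh1a2 and Oc90, and 10.0 CPM in cluster 12, both made up almost entirely of control cells, and 1.22 to 6.94 CPM in the other clusters. Placodal sensory neuron-like cells of control 1 also held 13 Hoxb4 UMIs in 3 cells, 10 of them in one, and Hoxb3 at 1.69 CPM there against 0.082 to 0.204 CPM in the other libraries.

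Between the genotypes no Hox gene passed in the inner ear classes. The genotypes shared few cells in most otic clusters, so each genotype test in these classes compares different mixes of clusters. Otic cluster 0 held 5 and 2 control against 493 and 730 cKO cells, and cluster 11 held 309 and 290 against 0 and 1. Otic cluster 16 was mixed (79 and 84 against 67 and 169). Placodal cluster 6 held 234 and 374 against 25 and 18. In otic epithelium-like cells 0 of the 3 Hox genes tested passed edgeR's quasi-likelihood test at an adjusted p of 0.05, a threshold that 40.1% of all genes passed, and 1 had an unadjusted p under 0.05. That gene was Hoxb2, with a log2 fold change (cKO over control) of 0.49 ± 0.17 (SE, 2 libraries a group) and an edgeR adjusted p of 0.051, and the highest control value (4.56 CPM) lay just under the lowest cKO value (4.63 CPM). DESeq2 called none either (Hoxb2 adjusted p = 0.0609). By edgeR, Hoxb2 passed with RLE normalization (0.50, adjusted p = 0.0436), without the low-count filter, with the replicate block, at resolution 0.5 and without cKO 2 (0.71, adjusted p = 0.000312), and its direction turned at resolution 2 (-0.29, adjusted p = 0.221). In placodal sensory neuron-like cells 0 of 1 passed (Hoxb2, 0.35 ± 0.37, edgeR adjusted p = 0.486, all genes 38.7%), with none at an unadjusted p under 0.05 and none by DESeq2. Neurons and epithelium of the ear did not differ past the threshold either: in placodal sensory neuron-like against otic epithelium-like cells 0 of 2 Hox genes passed (Hoxa2 0.61, adjusted p = 0.163; Hoxb2 -0.29, adjusted p = 0.17 by edgeR), none at an unadjusted p under 0.05, 0 by DESeq2, beside 51.6% of all genes. Under a coarser clustering 4 passed there, and 3 without doublet removal. In contrast, all 7 Hox genes tested were higher in neural tube progenitor-like than in otic epithelium-like cells (17.1% of all genes), with a median log2 difference of 7.75 (all genes -0.03). The low-count filter keeps a gene that is high enough in either class alone, and most of these genes entered through the progenitor-like class. The count and the median therefore follow in part from that filter. The differences were 10.11 ± 0.32 for Hoxb1, 8.53 ± 0.17 for Hoxa2, 7.89 ± 0.42 for Hoxa3, 7.75 ± 0.48 for Hoxd3, 7.34 ± 0.37 for Hoxb3 and 5.62 ± 0.10 for Hoxb2 (SE).

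Mesenchyme-like cells carried a group 2 code with almost nothing else. Hoxa2, the selector of second arch identity, stood at 54.7 and 56.1 CPM in control against 42.0 and 38.6 CPM in cKO libraries, and Hoxb2 at 22.5 and 17.1 against 26.0 and 28.3 CPM. Control and cKO values did not overlap for either gene, which was also so for 55.7% of all genes tested in the class, and the 2 genes stood in opposite order. Neither passed the edgeR test (Hoxa2 -0.32 ± 0.13, adjusted p = 0.166; Hoxb2 0.57 ± 0.18, adjusted p = 0.0896), both had an unadjusted p under 0.05, DESeq2 called 0, and 5.92% of all genes passed. Group 2 made up 96.2%, 97.8%, 95.6% and 93.5% of the Hox UMIs of the class, and genes of the Hoxa cluster 69.9%, 76.2%, 62.4% and 58.5%. Hoxa3, a gene of more posterior arches, was at 0.825 and 0.695 CPM in control and 2.24 and 3.22 CPM in cKO, from 3, 3, 20 and 9 UMIs. Hoxa4, Hoxc4, Hoxa5, Hoxb5 and Hoxb6 had no UMI in the class. Any Hox UMI was found in 45%, 32.4%, 22.8% and 31.3% of mesenchyme-like cells at 8000 UMIs (58.3%, 45%, 33.8% and 41.0% without thinning), and Hoxb2 was found in 30.3% of the cells with a Hoxa2 UMI and in 8.89% of those without. Against neural tube progenitor-like cells all 6 Hox genes tested were lower in the mesenchyme-like class (20.1% of all genes), by a median log2 difference of -4.34 (all genes -0.00), from -8.63 ± 0.29 for Hoxb1 to -1.22 ± 0.14 for Hoxa2. Genes almost absent from mesenchyme-like cells passed the low-count filter through the progenitor-like class, so this count and median follow in part from the filter. Neural crest or glia-like cells also held Hoxa2 (34.0, 19.5, 51.9 and 16.5 CPM) and Hoxb2 (93.0, 19.5, 105 and 45.5 CPM), with a spread within each genotype as wide as that between them. The median depth of this class was low at 5577 UMIs over all its cells, but uneven by library (4868, 24832.5, 5181 and 4178 UMIs in control 1, control 2, cKO 1 and cKO 2).

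Neural tube progenitor-like cells carried genes of groups 1 to 3. Hoxb1, the rhombomere 4 gene, stood at 58.4 CPM in control 1, 35.9 CPM in control 2, 107 CPM in cKO 1 and 79.6 CPM in cKO 2. Both cKO values lay above both control values. Hoxb1 was the one Hox gene that rose in this class (log2 fold change 1.11 ± 0.22, edgeR adjusted p = 0.0419), 1 of 6 tested where 0.957% of all genes passed in either direction and 0.444% were higher in cKO. The call was lost without control 2 (0.76, adjusted p = 0.33) and held in each other fit that left out a library. The other 5 genes each had an unadjusted p under 0.05 and missed the adjusted threshold, so that the 6 genes had a median log2 fold change of -0.16 (all genes 0.00). Hoxa2 stood at 83.5 and 110 CPM in control against 134 and 128 CPM in cKO (0.48, edgeR adjusted p = 0.166), and Hoxb2 at 252 and 201 against 276 and 287 CPM (0.36, adjusted p = 0.218). The group 3 genes lay the other way: Hoxb3 at 44.2 and 30.6 against 18.1 and 27.4 CPM (-0.78, edgeR adjusted p = 0.235), Hoxd3 at 14.2 and 16.0 against 6.69 and 8.23 CPM (-1.04, adjusted p = 0.215), and Hoxa3 at 18.4 and 28.6 against 12.4 and 19.2 CPM (-0.69, adjusted p = 0.353). Hoxa3 overlapped between the genotypes and the other 4, like Hoxb1, did not, beside 46.4% of all genes tested that did not overlap. Some marker sums of other classes also differed. The 7 neural crest or glia markers summed to 180 and 202 CPM in control against 133 and 111 CPM in cKO, and the 12 otic markers to 65.1 and 28.6 against 17.3 and 20.1 CPM. The 12 placodal sensory neuron markers lay the other way, at 130 and 169 against 179 and 191 CPM. Their part in these differences was not tested.

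As a share of the Hox UMIs of progenitor-like cells, group 1 made up 12.3% and 8.40% in control and 19.1% and 14.6% in cKO, group 2 70.8% and 72.9% against 72.6% and 74.4%, and group 3 16.2% and 17.6% against 6.59% and 9.84%. In both cKO libraries the share of group 1 lay above, and that of group 3 below, both control libraries. With 2 libraries a group the smallest p that an exact permutation allows is 0.33, so these shares were not tested. A more anterior cut of the hindbrain in the cKO embryos and an effect of the genotype cannot be told apart, since control and cKO tissue was cut from different embryos. The class made up 1.47%, 2.09%, 7.02% and 1.75% of the kept cells (57, 75, 226 and 65 cells), so that cKO 1 held most of it. Of 8 genes of the midbrain and isthmus, Otx2, a forebrain and midbrain gene, was at 3.34, 1.33, 0 and 0 CPM in progenitor-like cells. Gbx2, which is also made in the hindbrain and spinal cord, was at 9.97 to 11.7 CPM. Wnt1, which also marks the roof plate, was at 13.4, 12.6, 5.51 and 32.9 CPM. En1, En2, Pax5 and Fgf8 had 0 or 1 UMI there and Lmx1b 0 to 3 a library. In neural tube neuron-like cells En1, which also marks a class of ventral interneurons, was high at 369, 293, 376 and 448 CPM. Gbx2 was there at 24.2 to 32.5 CPM and Pax5 at 19.4 to 23.9 CPM, while Otx2 had no UMI. None of the 2 members tested in progenitor-like cells or the 4 tested in neuron-like cells passed by genotype (edgeR). Egr2, which marks rhombomeres 3 and 5, was at 1.67, 0.665, 0.984 and 1.83 CPM.

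**Figure D2:**
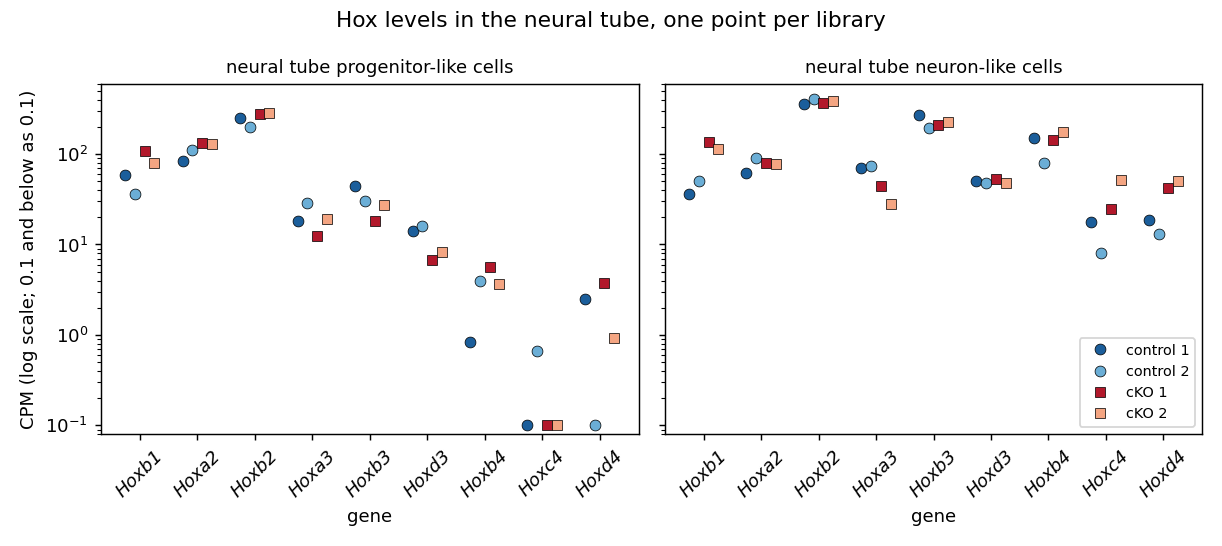
CPM (log scale, values of 0.1 and below drawn as 0.1) of 9 Hox genes in neural tube progenitor-like (left) and neural tube neuron-like cells (right), one point per library, circles for control and squares for cKO. Hoxb1 squares lie above Hoxb1 circles in both panels, and Hoxb4, Hoxc4 and Hoxd4 are low on the left and high on the right.

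Neural tube neuron-like cells held more posterior paralogues than the progenitor-like cells of the same libraries. Of 9 Hox genes tested, 7 were lower in progenitor-like than in neuron-like cells (34.9% of all genes) and 1, Hoxa2, was higher (33% of all genes), with a median log2 difference of -2.32 (all genes -0.03). Group 4 genes, low in progenitor-like cells, passed the low-count filter through the neuron-like class, so the count and the median follow in part from the filter. The largest differences were in group 4: Hoxc4 -7.23 ± 0.52, Hoxb4 -4.96 ± 0.20 and Hoxd4 -3.79 ± 0.30 (SE, edgeR). The size of the Hoxc4 difference is uncertain, since progenitor-like cells held almost no Hoxc UMIs (0.156% of 643 Hox UMIs in control 2 and 0% in each other library). It ran from -9.14 to -6.20 with 1 library left out. Group 3 followed with Hoxb3 at -3.04 ± 0.13, Hoxd3 at -2.32 ± 0.21 and Hoxa3 at -1.54 ± 0.18. Hoxb1 was at -0.23 with an edgeR adjusted p of 0.163. The Hoxa2 difference, 0.54 ± 0.10, was lost under a coarser clustering (0.21), a finer one (0.21) and without doublet removal (0.31). At 8000 UMIs, 97.6% to 100% of neuron-like cells held a Hox UMI (99.3% to 100% without thinning) with a median of 3 to 4 Hox genes per cell, against 90.1% to 94.8% and a median of 2 genes in progenitor-like cells (95.6% to 100% without thinning).

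In these neurons Hoxb1 and Hoxd4 rose in the cKO libraries. Hoxb1 stood at 36.2 and 49.9 CPM in control against 134 and 113 CPM in cKO, and Hoxd4, whose anterior border lies in the posterior hindbrain, at 18.7 and 12.9 against 42.2 and 50.2 CPM. Neither gene overlapped between the genotypes, beside 50.5% of all genes tested that did not. The log2 fold changes were 1.55 ± 0.17 for Hoxb1 (edgeR adjusted p = 0.00818) and 1.63 ± 0.21 for Hoxd4 (adjusted p = 0.0183), 2 of 9 tested where 1.28% of all genes passed and 0.514% were higher in cKO. Hoxd4 lies inside the annotated span of Hoxd3 on the same strand, so reads of the 2 genes may be split between them, and Hoxd3 itself stood at 49.7, 48.4, 53.5 and 48.2 CPM. Hoxc4 at 17.9 and 8.02 against 24.5 and 51.3 CPM (1.63, edgeR adjusted p = 0.0969) and Hoxa3 at 69.2 and 73.8 against 44.2 and 28.3 CPM (-0.88, adjusted p = 0.0676) missed the threshold. DESeq2 called Hoxa3 lower beside the same 2 rises (-0.90, adjusted p = 0.0384). Hoxb2 (360, 404, 366 and 382 CPM), Hoxb3 (269, 192, 211 and 224 CPM), Hoxb4 (150, 79.1, 144 and 175 CPM) and Hoxa2 (62.1, 89.6, 79.7 and 78.0 CPM) overlapped between the genotypes. Group 1 made up 3.58%, 5.46%, 12.4% and 9.84% of the Hox UMIs, group 3 37.5%, 32.6%, 28.0% and 25.9%, and groups 4 and up 18.1%, 10.6%, 19.2% and 24.6%. The 7 epibranchial markers summed to 346 and 324 CPM in control and 275 and 118 CPM in cKO neuron-like cells, with Tlx2 at 0 in cKO 1 and Phox2a at 0 in cKO 2, and their part in these differences was not tested.

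The neuron-like class held 3 clusters, and the genes called between the genotypes were not the same in each. In cluster 20, with Olig3 and Lhx5 among its leading genes, Hoxb1 stood at 42.5 and 66.9 CPM in control against 301 and 173 CPM in cKO (2.19, edgeR adjusted p = 0.0113). Hoxa3 (109 and 92.7 against 33.5 and 21.3 CPM) and Hoxd3 (51.9 and 56.2 against 16.0 and 15.2 CPM) fell there, by 1.64 (edgeR adjusted p = 0.0199) and 1.71 (adjusted p = 0.0255) on the log2 scale, 3 of 7 Hox genes tested where 0.59% of all genes passed. More Hoxb1 beside less of group 3 was also the order of the values in progenitor-like cells. In cluster 21, led by En1 and Otp, Hoxd4 stood at 11.2 and 8.51 against 52.6 and 42.0 CPM (2.35, edgeR adjusted p = 6.071e-06), and Hoxb1 (11.2 and 24.8 against 27.3 and 121 CPM), Hoxc4 (15.7 and 14.7 against 31.3 and 49.9 CPM) and Hoxb4 (125 and 75.1 against 204 and 143 CPM) also rose, 4 of 9 tested beside 6.21% of all genes. In cluster 24, led by Lbx1 and Pnoc, Hoxd4 (38.7 and 32.1 against 88.6 and 98.1 CPM) and Hoxc4 (32.3 and 13.2 against 45.8 and 82.2 CPM) rose, by 1.41 (edgeR adjusted p = 0.0004473) and 1.51 (adjusted p = 0.0129), and Hoxb1 was at 58.1, 46.3, 34.0 and 45.6 CPM (-0.39, adjusted p = 0.619), with 2 of 9 called beside 2.28% of all genes. The clusters differed in size between libraries (49, 137, 66 and 20 cells in cluster 20, 51, 76, 81 and 64 in cluster 21, 36, 55, 28 and 20 in cluster 24), and these fits within clusters were chosen after the data had been seen. Differences between clusters were not tested.

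**Figure D3:**
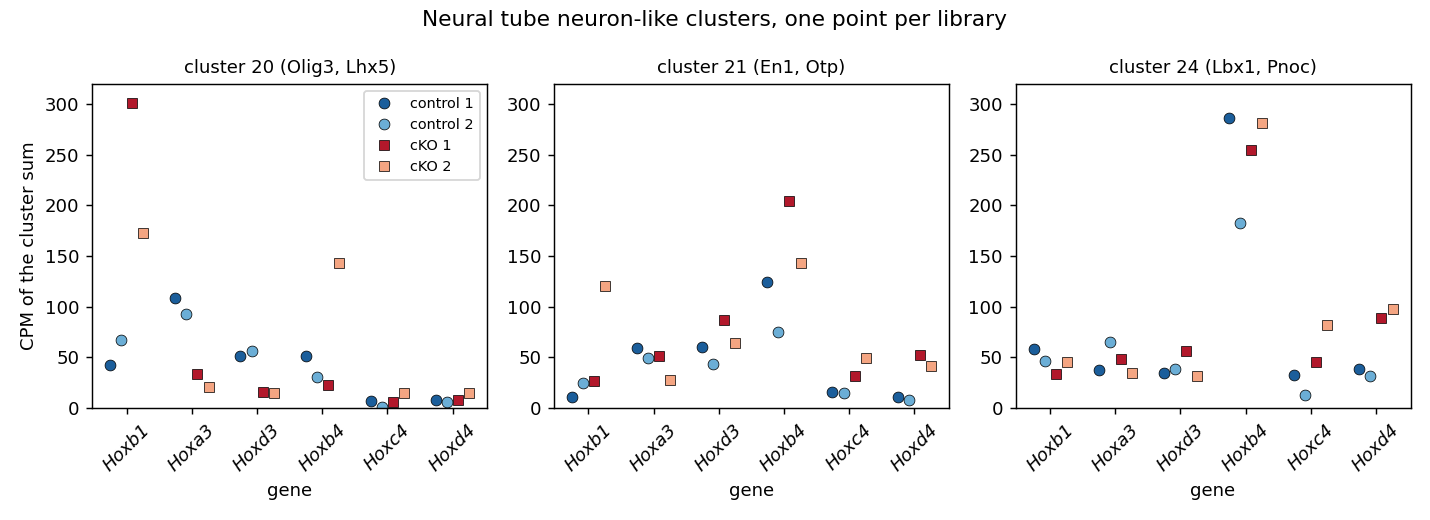
CPM of 6 Hox genes in the 3 neural tube neuron-like clusters, one point per library, circles for control and squares for cKO. Hoxb1 is high in the cKO squares of cluster 20, where Hoxa3 and Hoxd3 squares lie below the circles, and Hoxd4 squares lie above the circles in clusters 21 and 24.

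Neuron-like cells with Hoxb1 held genes of the posterior end of this code less often than cells without Hoxb1. At 8000 UMIs, Hoxb4 was found in 15 of 133 cells with a Hoxb1 UMI (11.3%) and in 230 of 508 cells without one (45.3%). The share was lower among the Hoxb1 cells in each library: 0 against 50.9% in control 1, 13.2% against 27.8% in control 2, 10.9% against 55.0% in cKO 1 and 15.2% against 73.8% in cKO 2. Hoxb3 showed the same order, 32.3% against 65.6%. Cells with Hoxd4 held Hoxb4 in 88.6% and cells without Hoxd4 in 28.4%, and cells with Hoxb3 held Hoxb4 in 60.4% against 6.79%. In progenitor-like cells none of 98 cells with Hoxb1 held Hoxb4, against 3.1% of the others. These are descriptions of cells that share a library, with no test. Neuron-like cells were pooled over clusters 20, 21 and 24, so contrasts between clusters and within them were not separated.

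Epibranchial neuron-like cells, with Phox2a, Ret and Prph among their markers, held a code that ran from group 2 to group 5. Hoxb2 stood at 91.1 and 82.9 CPM in control against 111 and 103 CPM in cKO, Hoxb3 at 32.8 and 36 against 44.4 and 37.0 CPM, and Hoxa3 at 19.0, 28.9, 23.8 and 23.8 CPM. Hoxb1, high in the neural tube, was at 0.446, 1.40, 2.43 and 1.68 CPM. Set against placodal sensory neuron-like cells, the other sensory neurons of the dissection, all 8 Hox genes tested were higher (30.7% of all genes), with a median log2 difference of 6.39 (all genes 0.01). The low-count filter keeps a gene that is high enough in either class alone. Hox genes almost absent from placodal cells thus entered through the epibranchial class. The count and the median follow in part from that filter and are no test of the Hox genes as a set. The differences were 7.37 ± 0.44 for Hoxb5, 7.11 ± 0.56 for Hoxb4, 5.89 ± 0.51 for Hoxb3 and 5.55 ± 0.56 for Hoxa3 (SE, edgeR). Most placodal UMIs of these genes came from control 1 (5, 0, 0 and 1 UMIs by library for Hoxb5, 13, 0, 0 and 0 for Hoxb4, 30, 4, 2 and 1 for Hoxb3 and 22, 8, 0 and 0 for Hoxa3). Without that library the differences were 9.15 for Hoxb5, 7.71 for Hoxb3 and 7.03 for Hoxa3, with no placodal Hoxb4 UMI left. Hoxa4 had no UMI in placodal sensory neuron-like cells and 72 in epibranchial neuron-like cells, at least 36.4-fold higher with 3 counts over the placodal class as the floor, and with that bound the median was 5.72. At 8000 UMIs 56.8%, 54.8%, 64.9% and 58.8% of epibranchial neuron-like cells held a Hox UMI (70.6%, 68.6%, 70.4% and 65.4% without thinning). The genes of the posterior end occurred in the same cells: Hoxb4 was found in 81.7% of cells with Hoxb5 and in 6.56% of cells without.

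Hox genes of several groups rose in cKO epibranchial neuron-like cells. Hoxb4 stood at 28.6 and 17.2 CPM in control against 56.5 and 38.4 CPM in cKO, Hoxb5 at 15.5 and 11.4 against 34.9 and 21.7 CPM, and Hoxb6 at 1.34 and 0 against 7.17 and 6.45 CPM (15, 0, 59 and 73 UMIs). No value overlapped between the genotypes for these 3 posterior genes, whose expression lies behind the anterior hindbrain, in a class where 68.9% of all genes tested did not overlap. Of 11 Hox genes tested, 6 rose and 0 fell (12.5% of all genes were higher in cKO and 13.3% lower), with a median log2 fold change of 0.88 (all genes -0.01). The log2 fold changes were 3.33 ± 0.63 for Hoxb6 (edgeR adjusted p = 0.0105), 1.17 ± 0.25 for Hoxb5 (adjusted p = 0.0157) and 1.16 ± 0.26 for Hoxb4 (adjusted p = 0.017). Hoxa2 (12 and 12.8 against 25.2 and 17.1 CPM) and Hoxb2, which lie toward the anterior end of the code, rose by 0.88 ± 0.21 and 0.42 ± 0.10 (edgeR adjusted p = 0.0211 and 0.0199). Hoxb3 (0.36, adjusted p = 0.0731), Hoxb1 (1.29, 0.11), Hoxa3 (0.12, 0.66), Hoxa4 (0.15, 0.849) and Hoxa5 (0.44, 0.518) did not pass. The calls rested on both control libraries: without control 2 none of the 6 passed (Hoxb6 2.45, adjusted p = 0.0525; Hoxb4 0.85, adjusted p = 0.118), and without control 1 only Hoxb6 did (adjusted p = 0.0338), by edgeR in each case. DESeq2 called 3 (Hoxb5, Hoxa2 and Hoxb2) and gave Hoxb6 an adjusted p of 0.301. The size of the Hoxb6 change was uncertain, with log2 fold changes of 2.45 to 9.075 when 1 library was left out and 0 UMIs in control 2.

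**Figure D4:**
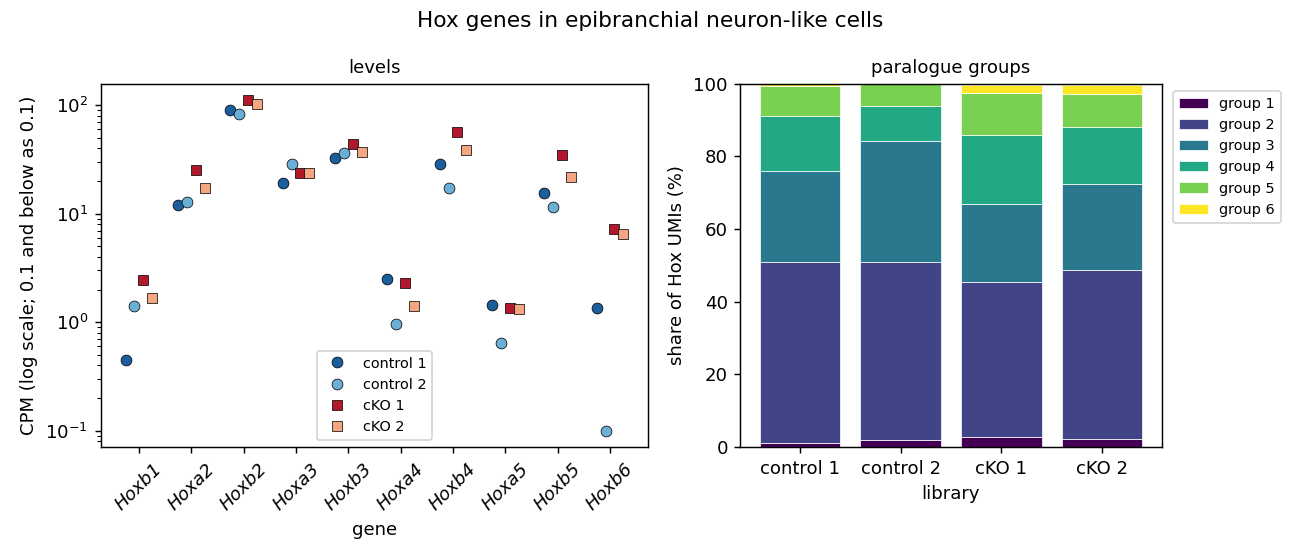
Left, CPM (log scale, values of 0.1 and below drawn as 0.1) of 10 Hox genes in epibranchial neuron-like cells, one point per library, circles for control and squares for cKO. Right, the share of Hox UMIs in each paralogue group per library, where groups 4 and up make up 24.1% and 15.7% in the control bars and 33.1% and 27.6% in the cKO bars.

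The share of epibranchial neuron-like cells with a Hoxb4 UMI at 8000 UMIs was 9.41%, 4.78%, 22.6% and 14.4% (11.5%, 5.46%, 22.9% and 15.0% without thinning), and that with Hoxb5 5.92%, 4.04%, 13.4% and 9.12% (8.05%, 4.78%, 20.7% and 13.1%), at median depths of 25441 to 29245 UMIs. As a share of Hox UMIs, group 2 made up 49.7%, 49.0%, 42.8% and 46.6%, and group 3 25%, 33.2%, 21.4% and 23.7%. The class joined 3 clusters, whose mix differed between the genotypes. Cluster 9 held 113, 117, 175 and 214 cells, cluster 13 held 172 and 159 in control against 57 and 142 in cKO, and the shallow cluster 22 held 38, 17, 96 and 57. The differences over the whole class therefore compare different mixes of clusters. In cluster 9, led by Neurog2 and Neurod4, Hoxb4 stood at 50.8, 16.3, 71.9 and 44.0 CPM, Hoxb5 at 15.5, 9.01, 41.3 and 24.8 CPM and Hoxb6 at 0.66, 0, 6.05 and 6.41 CPM, and Hoxb6, Hoxb5 and Hoxb2 rose (4.19, 1.51 and 0.60, edgeR adjusted p = 0.0028, 0.00781 and 0.0111), 3 of 10 tested beside 8.09% of all genes. In cluster 13, led by Prph and Ret, Hoxb4 was at 19.8, 17.6, 20.2 and 34.2 CPM and Hoxb6 at 1.5, 0, 7.17 and 6.91 CPM, and Hoxb6, Hoxb4 and Hoxb1 rose (3.13, 0.72 and 2.19, edgeR adjusted p = 0.0116, 0.0412 and 0.0416), 3 of 9 tested beside 11.3% of all genes. Hoxb6 was thus the gene called in both clusters. Without cluster 22, 6 genes rose.

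The 12 mesenchyme markers summed to 66.3 and 50.9 CPM in control and 203 and 139 CPM in cKO epibranchial neuron-like cells, with Foxc2 at 0 in control 1 and Col3a1 at 0 in cKO 2. The 8 ectoderm markers summed to 11.7 and 11.5 against 24.6 and 21.9 CPM (855 to 1223 CPM in ectoderm-like cells), with 2, 4, 1 and 3 of them at 0. The 6 muscle markers summed to 17.3 and 19.8 against 48.2 and 24.5 CPM, with 1, 1, 2 and 1 at 0. Ectoderm-like cells hold Hoxb2 and Hoxa2, and the part of these markers in the differences was not tested. In mesenchyme-like cells Hoxb4 was at 0.051 CPM over all libraries and Hoxb5 and Hoxb6 had no UMI. The 8 pharyngeal endoderm markers summed to 11.6, 11.5, 9.49 and 15.3 CPM, with Foxa1 and Foxa2 at 0 in all 4 libraries. The noncoding gene Hoxb3os, which lies opposite Hoxb2 and Hoxb3, was at 25.8 and 24.5 CPM in control and 77.6 and 51.8 CPM in cKO cells, and Hoxb5os, opposite Hoxb5 and Hoxb6, at 0, 0, 2.07 and 0.354 CPM. The sources used here do not say whether counting used the strand, so reads of such pairs cannot be told apart. Epibranchial neuron-like cells made up 8.35% and 8.15% of the kept cells in control and 10.2% and 11.1% in cKO. Whether the cKO pieces reached farther toward the posterior epibranchial placodes or the genotype changed the code cannot be told apart.

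Among the surrounding tissues, pharyngeal endoderm-like cells held a code of groups 1 to 5 in 3 libraries. The 8 endoderm markers summed there to 338, 388 and 351 CPM in control 1, cKO 1 and cKO 2. Marker sums of other lists were as high or higher: 1188, 1123 and 1110 CPM for the 12 otic markers and 567, 545 and 602 CPM for the 7 epibranchial markers. The 12 mesenchyme markers summed to 294, 317 and 319 CPM. The part of these markers in the code was not tested. Hoxb2 stood at 172, 173 and 170 CPM, Hoxa3 at 25.6, 24.9 and 25.9 CPM, Hoxb4 at 25, 20.2 and 25.7 CPM and Hoxb5 at 9.87, 9.44 and 13.6 CPM in control 1, cKO 1 and cKO 2. Hoxb1 was lower in control 1 (8.71 CPM) than in cKO 1 and cKO 2 (19.4 and 14.6 CPM). Control 2 held 5 such cells, so the genotypes could be compared only without it, with 1 control library that is assumed to vary like the 2 cKO libraries. In that edgeR fit 1 of 11 Hox genes rose and 0 fell (5.19% of all genes were higher), and Hoxb1 did not pass (1.02 ± 0.38, adjusted p = 0.0825). In ectoderm-like cells Hoxb2 stood at 92.3 and 61.0 against 111 and 111 CPM, Hoxa3 at 7.84 and 5.55 against 11.6 and 13.6 CPM, and Hoxa2 at 10.9 and 0.925 against 21.8 and 20.4 CPM. Of 7 Hox genes tested there, Hoxa2 rose (1.34 ± 0.34, edgeR adjusted p = 0.04), beside 5.69% of all genes in either direction and 2.88% higher in cKO, and the median log2 fold change was 0.84 (all genes -0.01). The Hoxa2 call was lost without cKO 1 (1.35, adjusted p = 0.141) and without cKO 2 (1.44, adjusted p = 0.0837), and without control 1, which left the 49 cells of control 2 as the control, the log2 fold change was 4.53. It was also lost at resolution 0.5 of the clustering (0.93, adjusted p = 0.173) and without doublet removal (1.31, adjusted p = 0.0581), and DESeq2 called no Hox gene there. Markers of other classes that hold Hoxa2 were also higher in cKO ectoderm-like cells. The 11 neural tube progenitor markers summed to 7.64 and 7.40 against 31.5 and 11 CPM (4, 7, 2 and 4 at 0). The 7 epibranchial markers summed to 13 and 5.55 against 25.6 and 15.8 CPM (1, 2, 0 and 0 at 0), and the 12 mesenchyme markers to 134 and 66.6 against 140 and 162 CPM (0, 6, 0 and 2 at 0). Their part in the result was not tested. Endothelium-like cells differed from the others in holding Hoxa5 (8.74, 31.7 and 11.1 CPM in control 1, cKO 1 and cKO 2) beside Hoxb4 (7.65, 30.3 and 28.9 CPM) and Hoxb2 (10.9, 20.7 and 31.1 CPM), from 37 to 43 cells a library.

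With all kept cells of a library summed, 7 of 14 Hox genes tested rose in cKO and 0 fell (14.8% of all genes were higher and 12.2% lower), with a median log2 fold change of 1.23 (all genes 0.00). These included Hoxb6 (3.47 ± 0.89), Hoxd4 (1.49 ± 0.40), Hoxc4 (1.36 ± 0.24), Hoxa5 (1.34 ± 0.31), Hoxb5 (1.34 ± 0.26) and Hoxb4 (0.92 ± 0.20), with edgeR adjusted p from 0.0171 to 0.0454. None passed without control 2, 4 without control 1 and 3 without cKO 1. Hoxb2, with 30.1 and 33.3 CPM in control and 61.7 and 36.4 CPM in cKO, and Hoxb1, with 1.73, 2.98, 12.1 and 3.57 CPM, did not pass (edgeR adjusted p = 0.0598 and 0.0651). Such sums follow the mix of cells as well as the level in each, and the mesenchyme-like class made up 2.97%, 4.45%, 8.35% and 2.24% of the kept cells and the neural tube neuron-like class 3.52%, 7.45%, 5.43% and 2.80%. Classes with larger shares in both cKO libraries included the pharyngeal endoderm-like one, which holds Hoxb4 and Hoxb5 (1.84% and 0.139% against 3.98% and 4.66%), the ectoderm-like one (5.51% and 1.36% against 10.53% and 7.86%) and the epibranchial neuron-like one given above. The endothelium-like class, which holds Hoxa5 and Hoxb4, was also larger in both (0.956% and 0.528% against 1.34% and 0.9965%). So was the leukocyte-like class (1.27% and 1.11% against 1.68% and 1.45%). Whether a genotype change differed between classes was tested for the ear and the neural tube: 0 of 8 Hox genes passed between otic epithelium-like and neural tube progenitor-like cells (3.37% of all genes; Hoxb1 1.80, edgeR adjusted p = 0.361, the one gene with an unadjusted p under 0.05), and 0 of 3 between otic epithelium-like and placodal sensory neuron-like cells (17.5%; 1 at an unadjusted p under 0.05). DESeq2 called none in either.

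Of the 9 cofactor genes, 7 were higher in neural tube progenitor-like than in otic epithelium-like cells and 0 lower (17.1% of all genes were higher), led by Meis1 (3.33), Meis2 (1.56), Pbx4 (1.14) and Pbx3 (0.81), with a list median of 0.71 (all genes -0.03). In epibranchial neuron-like against placodal sensory neuron-like cells 6 were higher (30.7% of all genes), with Meis1 at 2.55 and Meis2 at 1.46, and 1, Pbx2, was lower (30% of all genes). By genotype, none of the 6 lists examined (cofactors, midbrain and isthmus genes, rhombomere genes, retinoic acid and Cdx genes, Polycomb and Trithorax genes, parahox and posterior-linked genes) held a gene that passed in neural tube progenitor-like or neuron-like cells. In epibranchial neuron-like cells 2 of the 9 cofactors fell, among them Meis1 (-0.52), and 7 did not pass, in a class where 25.9% of all genes passed in either direction and 13.3% fell. Of 7 rhombomere genes tested Fgf3 rose (1.25) and 3 fell, among them Epha7 (-1.71) and Epha4 (-0.66). Of 12 Polycomb and Trithorax genes, which keep Hox genes silent or active, Ezh2 rose (0.42) and Kmt2a and Pcgf2 fell, a share close to that of all genes. In otic epithelium-like cells 3 cofactors rose and 3 fell of 9, with Meis1 at -1.32 (40.1% of all genes passed), and of 10 genes of retinoic acid handling and the Cdx group tested Cyp26b1 rose and Aldh1a2, Cyp26c1, Rarb, Cyp26a1 and Rxra fell, in a class where no Hox gene passed. In mesenchyme-like cells 4 of 9 cofactors fell (among them Meis1, at -1.02, Meis2 and Pknox1) and 0 rose, beside 2.8% of all genes that fell.

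Across the 26 clusters with at least 100 cells and among 78 pairs of Hox genes, the highest Spearman correlations were 0.92 for Hoxa3 with Hoxb3 and 0.92 for Hoxa2 with Hoxb2, both pairs of paralogues on different chromosomes, and the lowest was -0.15 for Hoxd3 with Hoxa5. Outside the Hox genes, Hoxb1 was most like Ap4s1 (0.77), Meis1 (0.76), Crabp1 (0.75), Gm15050 (0.72) and Zfp414 (0.72). Hoxb2 was most like Gm15050 (0.87) and Grcc10 (0.81), Hoxb3 like Nxph4 (0.88) and Rab18 (0.87), and Hoxb4 like Vapb (0.88) and Gnb2 (0.84). Gm15050 lies opposite Hoxa3 within the Hoxa cluster. The clusters share libraries and cell types and differ in depth, and these correlations are descriptions.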

How the data were processed

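The deposited matrices hold UMI counts per gene and cell barcode, already called as cells by the authors. The version differs between sources: Cell Ranger 6.0.1 per the file headers, but 3.1.0 per the submitters' processing notes, which also list FastQC 0.11.4, Seurat 4.1.0 and mm10; strand use in counting is not given in the sources used here. From these counts, cells with at least 1000 genes and at most 10% mitochondrial UMIs were kept. Scrublet's own threshold called 0 to 5 doublets a library, so the cells with the highest scores were removed at 0.8% per 1000 barcodes (124 to 160 a library). Cells were clustered with scanpy 1.11.5 (2000 variable genes, 30 components, resolution 1), without 49 Hox and Hox-cluster noncoding genes. A cluster was named under a rule settled after the clusters had been seen. A marker counted at 10 CPM or more and at least 2-fold the median over all clusters. A list needed at least 3 such markers and 40% of its genes. Among lists that met this, the one with the most markers among the 10 leading genes of the cluster was taken.

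Raw counts were summed per library and class, where a library entered with at least 20 cells, and tested with edgeR 4.0.16 (filterByExpr, TMM, quasi-likelihood, two-sided, Benjamini-Hochberg over all genes, threshold 0.05); class comparisons had the library as a block. CPM values are shares of the class sum, and an SE is the log2 fold change divided by the square root of F. The test was checked on simulated counts with 2-fold and 4-fold changes. By genotype in neural tube progenitor-like cells, 63 of 94 and 94 of 95 changed genes were recovered, beside 16 false calls. By genotype in otic epithelium-like cells, 77 of 100 and 96 of 100 were recovered, beside 4 false calls. In epibranchial against placodal sensory neuron-like cells, 85 of 99 and 98 of 99 were recovered, beside 6 false calls. Alternatives were DESeq2 1.42.0, other normalization and filtering, a replicate block, other clusterings, no doublet removal and each library left out. Members, marker lists and gene lists were chosen with earlier results of these data known. Genes were named by this rule: every Hox gene past the threshold by genotype (at most 12) and the 4 with the highest CPM; in class comparisons, the 6 with the largest difference each way; up to 4 per other list; and the 5 most alike in Spearman correlation over clusters, of genes with a mean of at least 5 CPM. Further Hox genes were named after their values had been seen. Results for some genes are not reported here.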

Additional observations from a re-analysis of the deposited data

Results flagged for a closer look

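The unnamed cluster 26 (97 cells, led by Ttr, Rspo1, Colec12 and Wnt1), which entered no comparison, held Hox transcripts above the level of leukocyte-like cells. Pooled over the libraries, Hoxb1 was at 21.6 CPM and Hoxb2 at 87.6 CPM. By library (control 1, control 2, cKO 1, cKO 2), Hoxb1 stood at 16.3, 9.0, 45.1 and 8.26 CPM and Hoxb2 at 89.6, 58.5, 109 and 93.6 CPM, from 28, 23, 29 and 17 cells.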

How the results depend on the processing

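Of 721 values of single Hox genes under the alternatives, 625 kept their direction and their side of the threshold, 26 came to pass it, 51 no longer passed it and 19 turned their direction; Hoxb1 and Hoxd4 in neural tube neuron-like cells kept direction and call under all alternatives over the whole class. The numbers of Hox genes that passed by genotype changed by over 1.5 times as follows, and the cause was not tested. In otic epithelium-like cells 1 instead of 0 passed with RLE normalization, without the low-count filter, with the replicate block and at resolution 0.5; in placodal sensory neuron-like cells 2 passed without the filter and 2 at resolution 0.5; in epibranchial neuron-like cells 3 instead of 6 passed with DESeq2 (Hoxb6 adjusted p = 0.301), 3 within cluster 9 and 3 within cluster 13; in neural tube progenitor-like cells 2 instead of 1 without the filter and 2 without doublet removal; in neural tube neuron-like cells 6 instead of 2 without the filter, 4 with the replicate block and 4 within cluster 21; in mesenchyme-like cells 1 instead of 0 without the filter; in ectoderm-like cells 3 instead of 1 without the filter, 0 with DESeq2 and 2 with the replicate block; over all kept cells 11 instead of 7 without the filter. Smaller changes were 9 (no filter), 5 (resolution 0.5) and 5 (no doublet removal) instead of 6 in epibranchial cells, 3 (DESeq2) and 3 (within cluster 20) instead of 2 in neural tube neurons, and 5 (DESeq2) and 5 (no doublet removal) instead of 7 over all kept cells. Between classes, 4 (resolution 0.5) and 3 (no doublet removal) instead of 0 passed in placodal sensory neuron-like against otic epithelium-like cells, and 13 instead of 8 without the filter in epibranchial neuron-like against placodal sensory neuron-like cells. In the interactions, 1 instead of 0 passed at resolution 2 for otic epithelium and neural tube progenitors, and 1 at resolution 0.5 and 1 at resolution 2 for otic epithelium and placodal neurons. With 1 library left out, the numbers ran from 0 to 1 (otic), 0 to 2 (placodal), 0 to 7 (epibranchial), 0 to 2 (neural tube progenitor), 2 to 4 (neural tube neuron), 0 to 1 (mesenchyme), 0 to 3 (ectoderm), 0 to 8 (all kept cells) and 0 to 1 (interaction of otic and placodal), and the sum of genes detected over classes from 43 to 51 (43 with all libraries); the lone library of a group is then assumed to vary like the others. The mean share of neural tube progenitor-like cells with a Hoxb2 UMI was 77.7% at 8000 UMIs, 61.2% at 4000 and 90.5% without thinning.

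Directions turned, all without a call. In otic epithelium-like cells they did for Hoxb2 at resolution 2 (-0.29) and for Hoxa2 without control 1 (0.07), without cKO 2 (0.32) and without doublet removal (0.106), with a range over libraries left out of -0.495 to 0.32. In placodal cells Hoxb2 ran from -0.34 (without cKO 1) to 0.84. In epibranchial cells they turned for Hoxa2 (-0.0274) and Hoxb2 (-0.0015) within cluster 13, for Hoxb3 within cluster 9 (-0.0339) and for Hoxa3, which ran from -0.154 (without control 1) to 0.444. In neural tube neurons they turned for Hoxb1 within cluster 24 (-0.39); for Hoxb2, which ran from -0.0633 (without control 1; without cKO 2, -0.0020) to 0.104, without doublet removal (-0.0452), within cluster 21 (-0.0497) and within cluster 24 (-0.25); and for Hoxb3, which ran from -0.262 to 0.23 (without control 1; without cKO 1, 0.0047), within cluster 21 (0.0468). Over all kept cells Hoxb3 ran from -0.17 (without cKO 1) to 0.419.

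Deviations of same-numbered libraries from their group means correlated at -0.04 over all kept cells and at -0.02 to 0.03 within classes, so no shared deviation was seen. Such correlations cannot show whether the numbers in the titles pair the libraries by dissection or run. With the replicate block, 6 genes passed in epibranchial neuron-like cells, 1 in neural tube progenitor-like cells and 7 over all kept cells, as without it. Classes of under 100 cells a library and genes under a few CPM limit what could be detected, and pharyngeal endoderm-like cells allowed a genotype fit only without control 2.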
